A study of Danio rerio with 8 samples.

Results

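The 51 genes described here stood at about the same level in exposed and control tissue at 48, 60 and 72 hours post fertilization (hpf) and lower in exposed tissue at 96 hpf. They come from 24345 zebrafish gene identifiers whose RNA was sequenced from the distal trunk, the hind end of the larva cut off near the caudal peduncle, with the region of the ectopic fin included. Larvae of the Tropical 5D wild-type line, with chorions removed at 4 hpf, had been kept from 6 to 8 hpf on in benzo[k]fluoranthene, a polycyclic aromatic hydrocarbon here called BkF, at 12 µM. Control larvae were kept in the solvent, 1% DMSO. Tissue of each treatment was taken at 48, 60, 72 and 96 hpf, which gives 8 conditions. Each condition has 1 value per gene, the authors' mean of normalized counts over 4 biological replicates, each a pool of 50 animals. Values of single replicates were not used here. The numbers below therefore carry no replicate error, and no test was run. All values are normalized counts, and the ratio is log2((BkF + 1)/(control + 1)) at a given time.

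A gene was taken when its mean over the 8 conditions was 50 or more, its ratio at 96 hpf was -1.5 or lower, and its ratio at each of 48, 60 and 72 hpf lay within 0.5 of 0. Genes of 11 symbol families (hox, tnn, myh, smyh, myl, mybp, kcn, scn, cacn, slc and col) and genes with a 0 in any condition were dropped. That left out 7 of 58 genes (0.303% of all), each for its symbol. The 4 ratios thus chose the genes, and they are given as a description only. Of 19143 genes with a mean of 50 or more, 535 (2.79%) had a ratio of -1.5 or lower at 96 hpf, and 51 (0.266%) met the whole rule. The same rule turned toward higher levels at 96 hpf was met by 9 genes (0.047%). Of the 51 genes 44 had a symbol in the name table.

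By roles known from other work, 27 of the 51 genes were grouped as acting in neural cells. How many of all 19143 genes with a mean of 50 or more have such a role was not counted. The 27 therefore have no share of all genes beside them and are a description. The tissue was bulk distal trunk, so the cells that held these RNAs are not known. The grouping does not exclude activity outside neural cells. In the neural tube of vertebrates, dividing progenitors are set apart into domains by homeobox and other transcription factors. Cells that leave the cycle switch on proneural factors of the basic helix-loop-helix (bHLH) class and Delta ligands, which signal through Notch receptors to hold neighbouring cells in the progenitor state. Beneath the neural tube lies the notochord, the embryonic axial rod, wrapped in a sheath rich in collagen. By textbook roles, assigned after the values were seen, 12 of the 44 genes with a symbol were grouped as transcription factors and regulators of neural cells, 5 as genes of the Notch pathway and 10 as other genes of neural cells. A further 7 were grouped as genes of axial matrix and muscle, and 10 had other or unknown roles. This grouping differs from the gene lists used below. UNCX and foxd5 were grouped as regulators though no list held them, and GADD45G, of the neurogenesis list, was placed under other roles.

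The conditions themselves differed beyond the 51 genes. Summed normalized counts were 87750209 to 89533865 in the control columns and 76456319 to 78634021 in the BkF columns, and the read depth behind them is unknown. With every column rescaled to the same total, the median ratio of all genes moved up by 0.18, 0.19, 0.20 and 0.16 at the 4 times, that of the 51 genes at 96 hpf became -1.60, and 28 of the 51 genes remained in a set that then numbered 52. Posterior Hox genes matched the labelled tissue, with HOXB13 at 25202 to 35156 over the 8 conditions. The liver gene fabp10a had a mean of 8.68 over the 8 and the insulin gene ins stood at 0.962 to 3.52. Not all genes listed for tissues outside the cut were low. RPE65, listed for the retina, stood at 5783 to 14569 in controls. The pancreas gene gcga reached 453 in BkF at 96 hpf, and apoa2, listed for liver and yolk, 1100 in BkF at 48 hpf. CYP1B1, a cytochrome P450 gene switched on by the aryl hydrocarbon receptor (AHR), stood at 55.0 to 102 in controls and at 48368 to 55154 in BkF.

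At 96 hpf the 51 genes stood 2.86- to 20.4-fold lower in BkF than in control tissue, with a median of 3.42-fold. These are levels in bulk tissue, in which fewer cells of a type and less RNA per cell cannot be told apart. Their median ratio was -0.07, -0.04, -0.20 and -1.76 at 48, 60, 72 and 96 hpf, beside medians of 0.0039, 0.011, 0.0078 and -0.0022 over all 19143 genes with a mean of 50 or more. A fold of 4 or more at 96 hpf was reached by 21 of the 51. Before 96 hpf the small ratios were negative at all 3 times in 23 genes, positive at all 3 times in 6 and of mixed sign in 22. Over all genes with a mean of 50 or more these shares were 32.4%, 34.1% and 33.5%, and the rule used all 3 ratios. Among members with a symbol, those nearest the threshold were SPON1 (-1.51), cspg5a (-1.51) and rbfox1l (-1.51). The nearest genes with a symbol outside it that met all other conditions were ngs (-1.49), LRRC39 (-1.47) and PTS (-1.47).

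**Figure D1:**
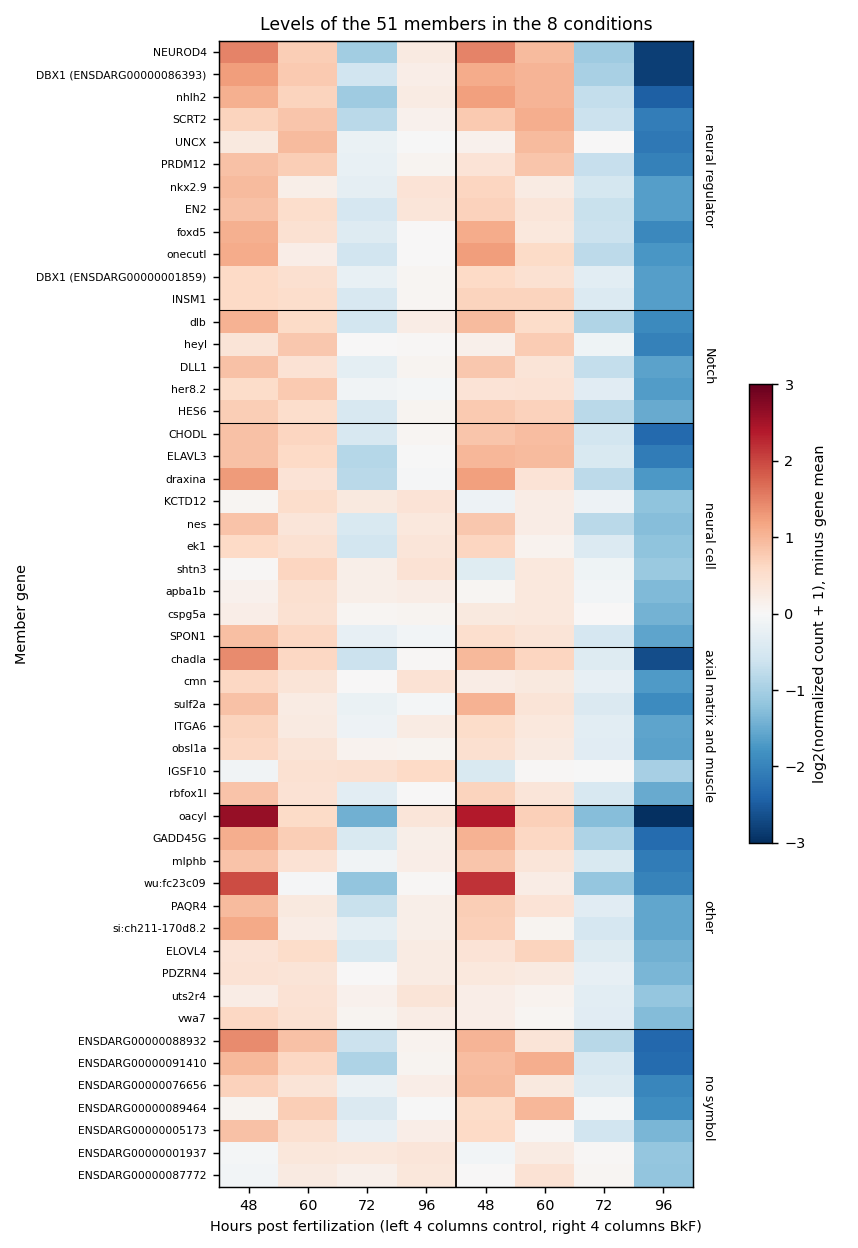
Level of each of the 51 genes (rows, grouped by role) in the 8 conditions (columns), as log2(normalized count + 1) minus the gene's mean over the 8; colours saturate at 3 log2 units. The column for BkF at 96 hpf is the lowest of the 8 in all 51 rows, and the level at 72 hpf is below that at 48 hpf in 45 rows for control and in 47 for BkF.

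The gap at 96 hpf went with a higher control level and a lower BkF level than at 72 hpf in most genes. Between 72 and 96 hpf the control level went up in 50 of the 51 genes and down in 1, obsl1a, with a median change of 0.42 (log2). Over all genes with a mean of 50 or more the control level went up in 52.7%. The control increase was 0.5 or more in 23 of the 51 genes, against 2.83% of all genes. In BkF the level went down in 51 of 51 genes over the same interval, with a median change of -1.24, where 47.4% of all genes went down. The decrease was 1 or more in 37 of the 51, against 2.1% of all genes, and BkF at 96 hpf was the lowest of the 8 values in all 51, against 20.1%. The 51 genes together made up 0.0910% of summed counts in controls and 0.0890% in BkF at 72 hpf, and 0.121% and 0.0338% at 96 hpf. Most of each sum came from 1 gene, cmn. At 72 hpf it gave 49733 of 80108 in controls and 41732 of 68076.5 in BkF. At 96 hpf cmn gave 66722 of 106483 and 15279 of 26504, so these shares mainly follow that gene. The BkF change was the larger of the pair in 48 of the 51 genes, against 61.8% of all genes. Because the rule asks for a ratio near 0 at 72 hpf and a low one at 96 hpf, it sets a bound on the difference between these changes. How that difference divides between them is a description. The rule favours a control level that went up and a BkF level that went down, so nothing is read from these counts beside the shares of all genes.

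A feature of the set that the rule did not ask for was the course of its control level before 72 hpf. From 48 to 72 hpf the control level of 45 of the 51 genes went down, against 51.1% of all genes, and in 30 of them it went down by at least 1 log2 unit. A decrease of that size in controls was seen in 555 of all 19143 genes (2.9%). In BkF 47 of the 51 went down over the same interval and 32 by at least 1 log2 unit, against 51.4% and 1.95% of all genes. The median change from 48 to 72 hpf was -1.13 in controls and -1.17 in BkF, where the medians over all genes were -0.01 in both. Most of the 51 genes thus stood lower at 72 than at 48 hpf in both treatments. The rule held the ratio near 0 at both times, so the BkF course had to lie close to the control course. The BkF counts and median therefore add nothing to those of the controls. The course on to 96 hpf includes values that the rule used, so nothing is read from its shares. Controls were lower at 72 than at 48 hpf and then higher at 96 hpf in 44 of the 51 genes (36.7% of all genes), and in 43 the 96 hpf level lay below that at 48 hpf (30.4%). BkF levels went down at both steps in 47 of the 51 (27.1%).

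**Figure D2:**
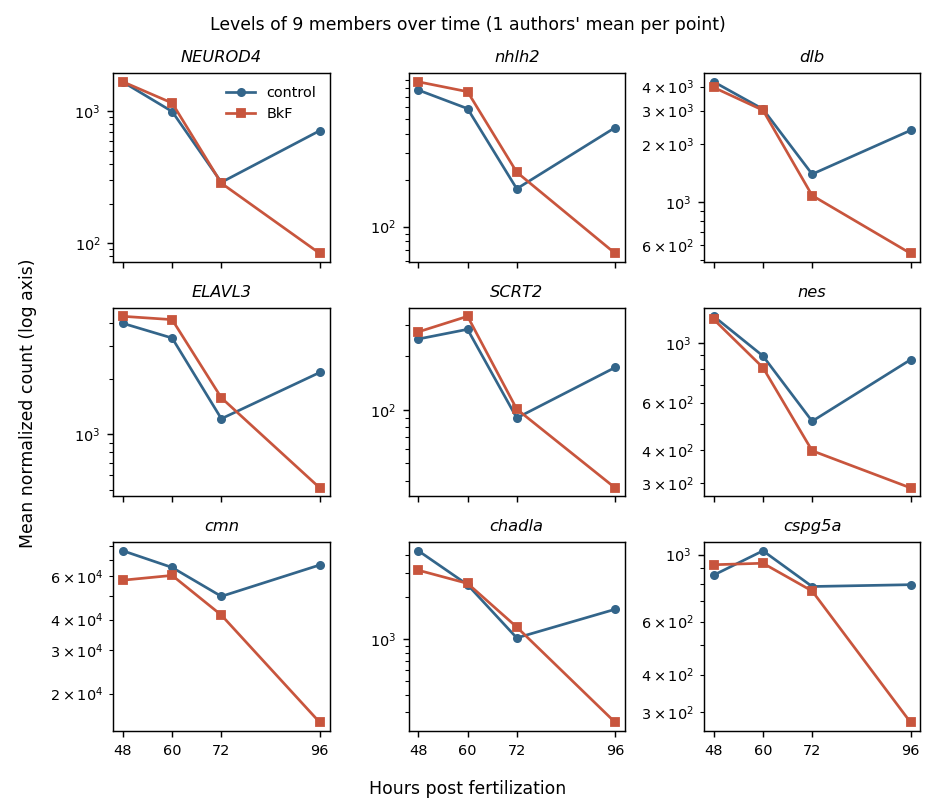
Normalized count (log axis, with its own range in each panel) of 9 of the genes against hpf, with control values as circles and BkF values as squares; each point is 1 authors' mean. The lines run close together to 72 hpf and part at 96 hpf, with NEUROD4 at 715 in control and 83.6 in BkF tissue.

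The proneural and neuronal factors are given first. Each run of 4 values below gives 48, 60, 72 and 96 hpf in that order. NEUROD4, a bHLH factor gene of newly born neurons, stood at 1672, 999, 289.6 and 715 in controls and at 1678, 1158, 285 and 83.6 in BkF. Its level at 72 hpf was nearly the same in both treatments, and its ratio at 96 hpf was -3.08, the second lowest of the 51. The gene nhlh2, another neuronal bHLH factor, stood at 776, 587, 176 and 442 in controls and at 878, 758, 226 and 66.8 in BkF, with a ratio of -2.71 at 96 hpf. BkF tissue held more nhlh2 than control tissue at the first 3 times and less at the last. SCRT2, a zinc finger repressor gene of postmitotic neural cells, followed the same order and stood at 249.7, 283, 89.9 and 173 in controls and at 274, 335, 101 and 36.4 in BkF. INSM1 (ENSDARG00000091756), a zinc finger factor gene of neuronal progenitors, stood at 576, 545, 272 and 392 in controls and at 602, 600.4, 284 and 120.2 in BkF, and its ratio at 96 hpf, -1.70, was the nearest to 0 of the 12 regulators. The second identifier with that symbol, ENSDARG00000053301, had ratios of 0.18, -0.12, -0.70 and -1.76 and was kept out of the set by its value at 72 hpf.

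The other regulators included genes known to mark domains of the neural tube, though bulk trunk tissue does not show which cells held their RNA. Both identifiers of DBX1, a homeobox gene of interneuron progenitors, were in the set. ENSDARG00000086393 stood at 467, 339, 132 and 225 in controls and at 424, 402, 100.4 and 26.8 in BkF, and ENSDARG00000001859 at 465, 424, 262 and 321 in controls and at 466, 417, 244 and 96.0 in BkF. Their ratios at 96 hpf were -3.03 and -1.73, and the first of them dipped more at 72 hpf in both treatments. PRDM12, a gene of interneuron progenitors and sensory neurons, stood at 458, 419, 214 and 264 in controls and at 332, 441, 153 and 60.5 in BkF. The engrailed gene EN2 stood at 173, 136, 66.0 and 121 in controls and at 152, 120.0, 58.1 and 29.0 in BkF, and nkx2.9, a homeobox gene of the ventral neural tube, at 234, 137, 101 and 162 in controls and at 189, 144, 83.7 and 38.1 in BkF. From 72 to 96 hpf the control levels of EN2 and nkx2.9 went up by 0.87 and 0.68 (log2), while the BkF levels went to the lowest of their course. The remaining factors were UNCX, a homeobox gene (ratio at 96 hpf -2.15), the forkhead gene foxd5 (-1.94) and onecutl, a gene of the onecut homeobox class (-1.76). UNCX was highest at 60 hpf, at 88.4, 139.6, 62.9 and 71.7 in controls and 78.8, 139, 72.8 and 15.4 in BkF. The gene foxd5 stood at 595, 391, 216 and 283 in controls and at 609, 355, 179.6 and 72.9 in BkF, and onecutl at 466, 249, 144 and 216 in controls and at 515, 319.8, 124 and 63.2 in BkF. Both ran downward in BkF at every step and turned upward in controls after 72 hpf. In 10 of the 12 regulator genes the control level had gone down by at least 1 log2 unit from 48 to 72 hpf. The same held for 30 of the 51 members and 2.9% of all genes. From 72 to 96 hpf it went up by at least 0.5 in 8 of the 12, beside 23 of the 51 and 2.83% of all genes. The rule favours such a rise, and the roles were assigned after the values were seen, so these counts are a description.

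The Notch pathway was present with ligands and targets. The Delta ligand gene dlb stood at 4232, 3051, 1399.9 and 2366 in controls and at 3955, 3011, 1084 and 542 in BkF, a ratio of -2.12 at 96 hpf. DLL1 (ENSDARG00000020219), a second Delta ligand gene, stood at 2904, 2123, 1294 and 1666 in controls and at 2771, 2047, 963 and 518 in BkF. Both ligands were highest at 48 hpf in both treatments and stood in BkF at 96 hpf 2.87 (dlb) and 2.42 (DLL1) log2 units below that level. Another identifier with the symbol DLL1, ENSDARG00000010791, had ratios of -0.18, -0.13, -0.84 and -2.20 and missed the set at 72 hpf. The gene heyl, a bHLH repressor of the class that Notch switches on, stood at 147, 197, 112 and 114 in controls and at 124, 191, 101 and 26.6 in BkF. Its control level was alike at 72 and 96 hpf, so that its gap lay almost wholly on the BkF side. The hairy-related gene her8.2 stood at 235, 277, 149.8 and 153 in controls and at 214, 219, 127 and 50.0 in BkF, and HES6 (ENSDARG00000007097), a gene of the same class that favours neuron formation, at 685, 591, 295 and 433 in controls and at 704, 663, 234 and 144 in BkF. The paralog HES6 (ENSDARG00000019335) had ratios of 0.08, 0.08, 0.01 and -0.34.

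Genes of neural cells other than these regulators included markers of young neurons and of progenitors. ELAVL3, whose RNA-binding product marks newly formed neurons, stood at 3982, 3315, 1211 and 2158 in controls and at 4348, 4171, 1573 and 511 in BkF. Its BkF level was above control at 48, 60 and 72 hpf and 4.22-fold below it at 96 hpf. The progenitor filament gene nes (nestin) stood at 1259, 896, 511 and 867 in controls and at 1226, 811, 397 and 288 in BkF. Of the 51 genes nes had the smallest BkF change from 72 to 96 hpf (-0.46), and a control change of 0.76. CHODL, a lectin gene known from motor neurons, stood at 707, 603, 276 and 402 in controls and at 681, 725, 262 and 75.1 in BkF, and draxina, a gene of an axon guidance protein, at 426, 236, 99.7 and 172 in controls and at 417, 235, 102 and 52.5 in BkF. The CHODL ratio at 96 hpf was -2.40 and the draxina ratio -1.70, both after ratios within 0.27 of 0.

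A few genes of this group had little or no dip at 72 hpf. The chondroitin sulfate proteoglycan gene cspg5a stood at 855, 1029, 784 and 795 in controls and at 925, 936, 757 and 278 in BkF. Its control change from 72 to 96 hpf was 0.02, and the BkF change -1.44. The genes apba1b, which encodes a synaptic adaptor, shtn3, of the shootin family, and KCTD12, of an auxiliary subunit of GABA-B receptors, likewise differed by 0.05 to 0.28 in controls and by -1.24 to -0.99 in BkF over that interval. The gene apba1b stood at 200.3, 252, 206 and 213 in controls and at 188, 227, 173 and 72.6 in BkF, shtn3 at 137, 209, 149.6 and 181 in controls and at 103, 167, 122 and 60.9 in BkF, and KCTD12 at 312, 431, 366 and 393 in controls and at 268, 345, 266 and 129 in BkF. In all 3 of them control tissue at 96 hpf was above its own 48 hpf level. SPON1 (ENSDARG00000010029), a gene of a floor plate matrix protein, did dip and stood at 283, 230.4, 126 and 142 in controls and at 214, 196, 106 and 49.2 in BkF, while its second identifier ENSDARG00000023694 had ratios of -0.13, -0.51, -0.51 and -0.47. The gene ek1, named for an Eph-like kinase, stood at 306, 279, 139 and 263 in controls and at 319, 219, 153 and 87.1 in BkF.

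**Figure D3:**
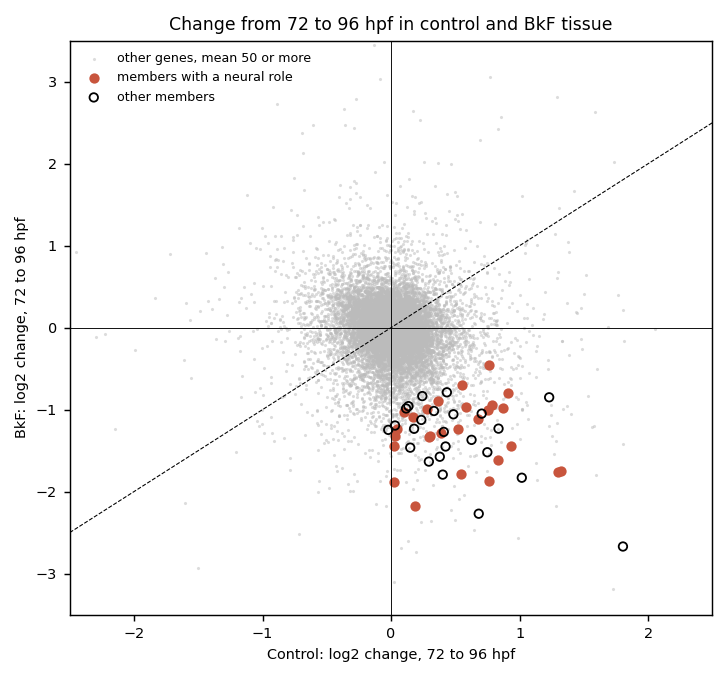
Log2 change from 72 to 96 hpf in control tissue (horizontal) and BkF tissue (vertical) for each gene with a mean of 50 or more; filled circles are the 27 members with a neural role, open circles the other 24, grey dots all other genes, and the dashed line marks equal change. All 51 members lie below the horizontal axis line and 50 lie to the right of the vertical one; 27 other genes fall beyond the axes.

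The 7 matrix and muscle genes had the gap at 96 hpf that the rule asked of every member. Their control change from 48 to 72 hpf had a median of -0.82 and ran from -2.08 (chadla) to 0.59 (IGSF10). In the 12 neural regulators the median was -1.42. The roles were assigned after the values were seen, so these medians are a description. The gene cmn, which encodes calymmin, a matrix protein of the zebrafish notochord, stood at 76198, 65183, 49733 and 66722 in controls and at 57872, 60510.5, 41732 and 15279 in BkF. The gene chadla, of a leucine-rich repeat matrix protein, stood at 4323, 2467, 1024 and 1644 in controls and at 3135, 2521, 1225 and 253 in BkF. Its ratio was -0.46 at 48 hpf, 0.26 at 72 hpf and -2.69 at 96 hpf, the lowest of this group. ITGA6, an integrin subunit gene, stood at 3147, 2406, 1781 and 2366 in controls and at 2935, 2493, 1604 and 664 in BkF, and sulf2a, of an extracellular sulfatase that trims heparan sulfate, at 2082, 1346, 984 and 1091 in controls and at 2348, 1482, 840.0 and 304 in BkF. Both had control levels at 96 hpf between those of 48 and 72 hpf. IGSF10 alone of these 7 genes was higher at 72 than at 48 hpf in controls, and it stood at 3279, 4882, 4939 and 5357 in controls and at 2549.8, 3603, 3498 and 1765 in BkF. Its ratio of -0.50 at 72 hpf lay just inside the window of 0.5.

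The muscle genes of this group were obsl1a and rbfox1l. The obscurin-like gene obsl1a, of a sarcomere-associated cytoskeletal protein, stood at 1703, 1464, 1199 and 1180.5 in controls and at 1537, 1332, 872 and 367 in BkF. It was the only member whose control level did not go up after 72 hpf. The splicing factor gene rbfox1l, active in zebrafish muscle, stood at 5798, 4310.0, 2562 and 3230.1 in controls and at 5104, 4127, 2286 and 1129.6 in BkF. Its ratio at 96 hpf was -1.51, close to the threshold.

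The lowest ratio of the whole set belonged to oacyl, a gene named for an O-acyltransferase-like protein, at -4.32. It stood at 3725, 897, 223 and 779 in controls and at 3149.9, 994, 248 and 38.2 in BkF. It was also the gene that moved most over time, with a control change of -4.06 from 48 to 72 hpf and of 1.80 from 72 to 96 hpf. The clone-named gene wu:fc23c09 had the next largest control decrease before 72 hpf (-3.13) and stood at 352, 88.1, 39.3 and 93.4 in controls and at 409, 106, 40.1 and 21.8 in BkF. GADD45G (ENSDARG00000016725), of a growth arrest and DNA damage family, stood at 1736, 1356, 598 and 923 in controls and at 1689, 1257, 428 and 165 in BkF. Its paralog ENSDARG00000019417 went another way, with ratios of 1.05, 0.95, 1.04 and 0.30. The melanophilin gene mlphb, of a protein that carries pigment granules along the cell skeleton, stood at 1448, 1076, 742 and 909.8 in controls and at 1414, 1033, 577 and 185 in BkF. Its dip at 72 hpf was shallow beside that of oacyl. ELOVL4 (ENSDARG00000006773), of an elongase of very long chain fatty acids, stood at 156, 173, 84.9 and 139 in controls and at 156, 187, 88.6 and 42.3 in BkF. PAQR4 (ENSDARG00000074160), of a membrane receptor family, stood at 335, 210.0, 109 and 195 in controls and at 287, 228, 137 and 57.6 in BkF. Its paralog ENSDARG00000076960 had ratios of -0.51, -0.34, -0.28 and -0.38. The ratio at 96 hpf was -1.69 for ELOVL4, -1.74 for PAQR4 and -1.73 for si:ch211-170d8.2. Those of PDZRN4, the urotensin receptor gene uts2r4 and vwa7 were -1.62, -1.53 and -1.52. The 7 identifiers without a symbol had ratios of -2.46 to -1.51, ENSDARG00000088932 and ENSDARG00000091410 being the lowest.

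Gene lists of tissues and pathways, compiled with earlier results of these data known, were set beside the 51 genes, by counts and medians alone. The fixed list of neuron and synapse genes held 59 genes with a mean of 50 or more, and its median ratio was 0.13, 0.24, 0.39 and -0.51 at the successive times. At 96 hpf 4 of the 59 had a ratio of -1.5 or lower, against 2.79% of all genes. NEUROD4 and ELAVL3 were 2 of these, and ISL1 (-1.62), a motor neuron factor gene, and STMN2 (ENSDARG00000070537, -1.51), a neuronal stathmin gene, the others. In the other direction 3 of the 59 had a ratio of 1.5 or higher, against 2.22% of all genes. They were MAP1B (2.25), of a microtubule-associated protein, eno2 (2.16), of an enolase, and UCHL1 (1.81), of a ubiquitin hydrolase. The ratio was below 0 in 43 of the 59, beside a median of -0.0022 over all genes with a mean of 50 or more. The summed level was taken over all 70 matched identifiers of the list, with no cut on the mean. It ran from 32005 to 43217 in controls and from 32021 to 52410 in BkF. Of the 70 identifiers 1 was at 0 in some condition. By the list median, neuron genes stood higher in BkF than in control tissue before 96 hpf and lower at 96 hpf.

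Lists of neurogenesis and of the Notch pathway were added after the values were seen, hold members of the set and support nothing by their direction. Of 53 neurogenesis and neural patterning genes 24 had a ratio of -1.5 or lower at 96 hpf, beside 2.79% of all genes. At 48, 60 and 72 hpf 0 of the 53 had one, near the 0.987%, 1.33% and 1.73% of all genes. Their median was 0.13, 0.14, -0.02 and -1.44, and 13 of the 53 were members. The 40 that were not members had a median of -0.99 at 96 hpf, with 11 at -1.5 or lower, beside the same 2.79%. Among these neurog1, a proneural bHLH gene, stood at 576, 409.8, 189 and 296 in controls and at 417, 343, 96.7 and 32.0 in BkF. MYT1, a zinc finger gene of differentiating neurons, stood at 1861, 1849, 597 and 1312 in controls and at 2682, 1806, 1038 and 285 in BkF, and OLIG2, a gene of motor neuron and oligodendrocyte progenitors, had ratios of -0.33, -0.46, -0.61 and -1.84. The progenitor gene SOX2 had ratios of -0.41, -0.57, -0.81 and -1.48, whereas SOX3 stood higher in BkF at all times, with 0.30, 0.35, 0.55 and 0.30. Of 37 Notch pathway genes 10 were at -1.5 or lower at 96 hpf, beside 2.79% of all genes, and 0 before. The list median at 96 hpf was -0.54. The 5 that were not members included her4.4 (-2.34), her4.2 (-2.27), her8a (-2.15) and her4.1 (-2.14), hairy-related bHLH genes, and the fifth was DLL1 (ENSDARG00000010791, -2.20).

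Lists of the other axial tissues also had their lowest medians at 96 hpf. The notochord list (22 genes) had medians of -0.30, -0.24, -0.37 and -0.999. At 96 hpf 7 of its genes (31.8%) were at -1.5 or lower, beside 2.79% of all genes, led by epyc (-2.06), of a small proteoglycan. Among the 7 were COL9A2 (-1.79) and col8a1a (-1.64), which met the rest of the rule and were dropped only for their symbols. The member cmn was not counted in the notochord list, which held that gene only under the name of its protein, calymmin. The summed level of the notochord list was taken over its 23 matched identifiers, with no cut on the mean. It ran from 749507 to 905551 in controls and from 520246 to 738466 in BkF, with no identifier at 0. The cartilage and bone list (22 genes) had medians of -0.30, -0.02, -0.09 and -0.73 and 7 such genes (31.8%). They were led by SOX9 (ENSDARG00000043923), a chondrogenic factor gene that was low in BkF at all times (-3.03, -2.84, -3.29 and -3.71). COL11A2 (-2.42), also among them, was likewise dropped from the set only for its symbol. The list of skeletal muscle contraction and calcium handling (63 genes) had medians of 0.27, 0.11, 0.00 and -0.75. It held 1 such gene, the member obsl1a, and this share (1.59%) lay below that of all genes. Summed levels of the 66 matched identifiers of that list were 540081 in controls and 333063 in BkF at 96 hpf. Muscle regulators (21 genes) had a median of -0.71 at 96 hpf. Lowest was mstnb, the myostatin gene (-2.39), which had already been at -3.13 at 72 hpf. Genes of the neuromuscular junction (11 genes) had a median of -0.74 at 96 hpf, with RAPSN, of a receptor-clustering protein, lowest (-1.45). Muscle energy genes (39 genes) had a median of -0.48, with FBP2, a gluconeogenic enzyme gene, lowest (-1.83). Myelin and glia genes (13 genes) had medians that went down at each step, -0.10, -0.31, -0.59 and -1.15. At 96 hpf 4 of the 13 (30.8%) were at -1.5 or lower, with her4.2 lowest (-2.27). Also among the 4 were her4.1 and OLIG2, so this count overlaps those of the Notch and neurogenesis lists above. Outside these tissues, 6 of 14 ionocyte genes (42.9%) and 8 of 38 epidermis and periderm genes (21.1%) were at -1.5 or lower at 96 hpf. At 72 hpf the counts in these 2 lists were already 4 and 6. Whether the levels of any of these lists had a part in the values of the 51 genes was not tested.

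Genes of dividing cells had a median near 0. The list of DNA replication and mitosis genes (39 genes) had medians of -0.29, -0.10, 0.18 and -0.02, and 0 of its 39 genes stood at -1.5 or lower at 96 hpf, which at 2.79% of all genes is near the background. MCM6 (ENSDARG00000033231), a replication helicase gene, had its largest ratio (1.51), while the second identifier with that symbol had -0.09. Sterol and fatty acid synthesis genes (25 genes) had a median of -0.54 at 96 hpf and held the member ELOVL4. Lowest was fasn2, a fatty acid synthase gene that was low in BkF at all times (-4.02, -3.93, -3.31 and -4.08). The other 18 fixed lists held 0 members, and their medians at 96 hpf ran from -1.37 for ionocyte genes to 1.202 for the AHR battery. Of all 28 fixed lists 15 had their lowest median at 96 hpf.

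**Figure D4:**
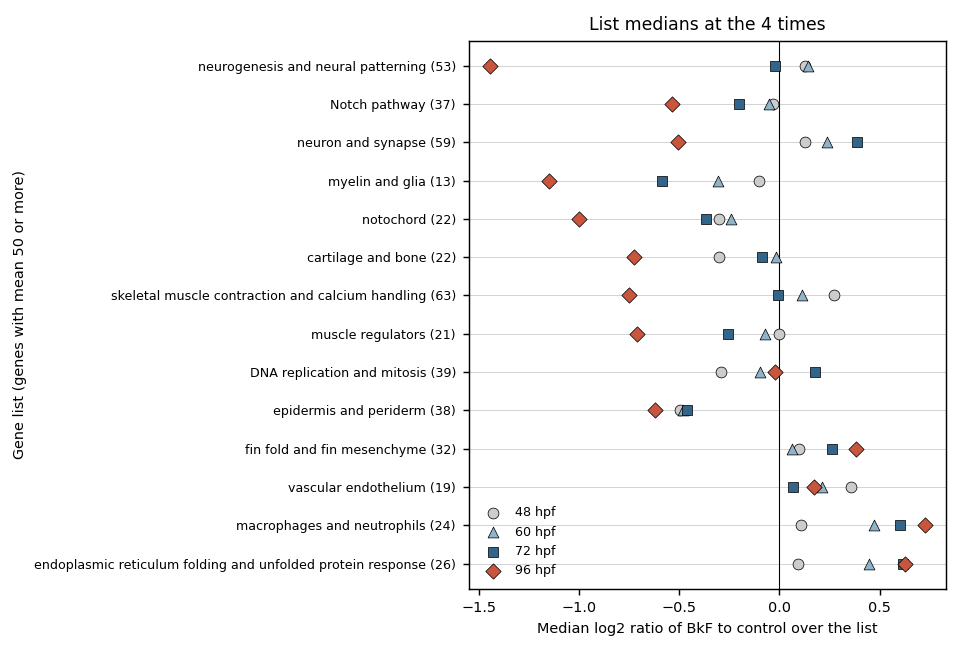
Median log2 ratio of BkF to control (horizontal axis) at each of the 4 times for 14 gene lists, with the number of genes of mean 50 or more in parentheses; neurogenesis and Notch lists were added after the values were seen. The 96 hpf diamond of the neurogenesis list lies at -1.44, left of its other 3 points between -0.02 and 0.14, while the DNA replication list stays between -0.29 and 0.18.

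The 96 hpf control column enters all of these ratios, and most of the genes were higher there than at 72 hpf. With the 72 hpf control in its place, BkF at 96 hpf was lower in 51 of 51 genes, against 49.8% of all genes. The rule chose low BkF values at 96 hpf and held the treatments close at 72 hpf, so this count and those that follow are a description. The median was then -1.39, and 17 of the 51 were at -1.5 or lower while 45 were at -1 or lower, beside 2.48% and 6.87% of all genes. NEUROD4, the first DBX1 identifier, oacyl, chadla and GADD45G were among the 17. Of the 44 genes with a symbol, 31 could be placed by it on RefSeq's GRCz12tu assembly, on 18 chromosomes, and 0 pairs of them lay within 10 protein-coding genes of each other.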

How the data were processed

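Total RNA of distal trunk tissue was made into stranded mRNA libraries and sequenced from one end over 100 bp, per the labels' protocols. FastQC, Trimmomatic, Salmon, DESeq2 and the build Zv9 are named in the submitters' processing notes, but their versions and the annotation are not given in the sources used here. As deposited signal values, the table gives 1 mean per condition, which the authors took over DESeq2 normalized counts of 4 replicates (32 libraries in all, per the labels). They are not whole reads, so the depth is unknown and no interval is given. Where gene copies are nearly identical, Salmon divides reads among them, which makes single paralogs uncertain.

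Ratios were computed as log2 of values with a pseudocount of 1 added, which understates changes of low genes, with pandas 2.3.3 in Python 3.11.15. The selection rule was first tested on simulated data. With 1 value per condition no test was run and no p-value is given. Symbols came from a table of identifiers, in which 18028 of 24345 had one. List members were matched by symbol in any case, and failing that by a symbol in capitals that lacks the letter of the paralog. Named were the 30 lowest ratios and the 3 genes nearest each side of the threshold, all among genes with a symbol. Members in a fixed list were named too, which gives 33 members. Of each described list the gene with the largest ratio in size was also named. The other 11 members with a symbol, paralogs and further list genes were named after their values were seen. The members and lists were chosen with earlier results of these data known. Alternatives were a pseudocount of 10 or none, the same total in every column, quantile normalization, other minimum means and thresholds, and nothing dropped.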

Additional observations from a re-analysis of the deposited data

How the results depend on the processing

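The number of genes meeting the rule was 51, and it stayed between 34 and 73 with a pseudocount of 10 (42) or none (52), the same total in every column (52), quantile normalization (41), a minimum mean of 10 (69), of 200 (34) or none (73), and nothing dropped (58). Of the 51 genes 41, 51, 28, 37, 51, 34, 51 and 51 remained under these in turn. The thresholds moved it more: a ratio at 96 hpf of -1 or lower gave 193 genes and of -2 or lower 21, and a window of 0.25 before 96 hpf gave 15 and of 0.75 gave 113. The median ratio at 96 hpf of the 51 was -1.76 as deposited and -1.60 with the same total in every column. Against the 72 hpf control, an alternative chosen after seeing the data, it was -1.39, and 17 rather than 51 genes were at -1.5 or lower. The median changes from 72 to 96 hpf ran from 0.40 to 0.43 in controls and from -1.28 to -1.18 in BkF over these scalings and pseudocounts. No paired analysis was possible because each condition has 1 deposited mean, and for the same reason no replicate could be left out. The depth is unknown, so no precision can be given for the genes of low level, of which the lowest had a mean of 72.2.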

Other observations

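Genes of symbol families left out of the set met the rest of the rule in 7 cases, none of them for a 0 in a condition, and 5 of these were collagen genes. COL11A2 stood at 33978, 40206, 30343 and 34564 in controls and at 29366, 37552, 21788 and 6448 in BkF at 48, 60, 72 and 96 hpf. The gene col9a1b stood at 48424, 58753, 48618 and 51048 in controls and at 40610.2, 52494, 34672 and 10445 in BkF, and COL2A1 (ENSDARG00000069093), the gene of the main collagen of cartilage and of the notochord sheath, at 137424, 157612, 114546 and 132097 in controls and at 121852, 154291, 94731 and 35753 in BkF. COL9A2 and col8a1a had ratios of -1.79 and -1.64 at 96 hpf. The others were the anion transporter gene slc26a6l2 (-1.89) and hoxb1b (-1.55). The median control change from 48 to 72 hpf of these 7 genes was -0.17, against -1.13 in the 51.

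Genes with an early decrease in controls held a larger share of ratios far from 0 at 96 hpf, on both sides. Of the 555 genes whose control level went down by at least 1 log2 unit from 48 to 72 hpf, 108 (19.5%) had a ratio of -1.5 or lower at 96 hpf, against 2.79% of all genes, and 15 had one at 72 hpf. Of the 108 genes 30 were among the 51 that the rule chose, and 78 were not. Among the 222 of them whose control level went up again by at least 0.5 by 96 hpf the share was 26.6%, a measure that holds the 96 hpf control on both sides. At 1.5 or higher at 96 hpf stood 43 of the 555 (7.75%), against 2.22% of all genes. The median ratio of the 555 genes was 0.45 at 72 hpf and -0.31 at 96 hpf. These genes were chosen for a low control level at 72 hpf, which also enters the ratio at that time. Nothing is therefore read from their 72 hpf ratios or from the difference between the 2 times. The cause was not tested.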
